A study of Canis lupus familiaris with 5 samples.

Results

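The 24 h vein graft of dog 1 held a group of nuclei picked out by AQP9, PLXNC1, SLC11A1, MXD1, IL1RAP, PLEK and SLA, genes read mostly in neutrophils, monocytes and their kin. A barcode with at least 100 detected features was taken as a member when it had at least 3 unique molecular identifiers (UMIs, counts of single transcripts) over these 7 genes and at least 2 of the genes detected. Its UMIs over the 7 genes also had to exceed those over each of F13A1, MRC1, CD163 and TIMD4 (resident macrophage genes, summed), PTPRB, PECAM1, CDH5, VWF and MMRN2 (endothelial genes, summed) and DCN, LAMA2, COL1A2 and COL6A3 (fibroblast genes, summed). The rule found 494 of 6868 nuclei, of which 472 (95.5%) lay in the graft and 22 in the other libraries. They are called myeloid-rule nuclei here. That they entered the vein from the blood was not measured: the counts show which transcripts a nucleus held, not where its cell came from.

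The series measured nuclear RNA of cephalic vein from mongrel dogs of 25 kg, all 5 libraries being labelled male. Undistended vein served as control (dogs 1 and 2, n = 2 libraries). Distended vein came from the same dogs (n = 2), taken after a harvest of about 30 minutes in which the vein was filled against a blocked outflow with saline holding papaverine, a smooth muscle relaxant, and bivalirudin, a thrombin inhibitor. The graft was cephalic vein removed 24 h after it had been sewn in as a carotid bypass (dog 1, n = 1), with bivalirudin also given systemically before the vessels were joined. Dog 1 thus gave all 3 kinds of vein, but with 1 grafted library, graft and library cannot be told apart. Tissue was snap-frozen and its nuclei were read with the 10x Genomics 3' chemistry, so transcripts found only in cytoplasm are thinly represented.

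Neutrophils and monocytes are the first white cells to enter injured vessel wall. They roll and stick by selectins and β2 integrins, follow complement fragments, lipid mediators and chemokines through G protein-coupled receptors, and act by phagocytosis, oxidants, proteases and cytokines. Neutrophils live on CSF3 (G-CSF) signalling and read interleukin-1 through receptors that include the decoy IL1R2. In dogs, unlike people, neutrophils also carry CD4.

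The libraries differed widely in depth. Control vein gave 2337436 UMIs in dog 1 and 1305862 in dog 2, distended vein 2667701 and 410604, and the graft 11302558. The 4 features LOC119877772 to LOC119877775 took 65.1%, 57.7%, 37.8%, 26.5% and 2.98% of these, and all levels below are counts per 1000000 (CPM) without them. Between 0 and 2 barcodes were shared by any pair of libraries, none of them a member. Scrublet marked 44 nuclei (0.641%) as doublets, of which 1 was a member. Control dog 2 stood apart in its erythroid transcripts, 176 UMIs (518 CPM) against 1, 2, 0 and 34 UMIs in the other libraries in the same order.

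The share of myeloid-rule nuclei was 0 of 773 in control dog 1, which allows a share of up to 0.388% if 3 counts are taken as the limit of a count of 0. It was 1.54% in control dog 2 (16 of 1041, exact 95% interval 0.881 to 2.48), 0.190% in distended dog 1 (4 of 2108, 0.0517 to 0.485) and 0.830% in distended dog 2 (2 of 241, 0.101 to 2.97). In the graft it was 17.4% (472 of 2705, 16 to 18.9). The graft therefore lay above every other library by more than the counting error, while control dog 2 lay above distended dog 1 and the interval of distended dog 2 overlapped both. The grafted share exceeded the control mean by 16.7 percentage points and the distended mean by 16.9. With 1 grafted library these differences have no test. Distended minus control was -0.259 points, from 0.510% ± 0.453 (SD, n = 2) and 0.768% ± 1.09 (SD, n = 2), and a two-sided exact permutation test over libraries gave p = 1, where the smallest p that the design allows is 0.333.

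**Figure D1:**
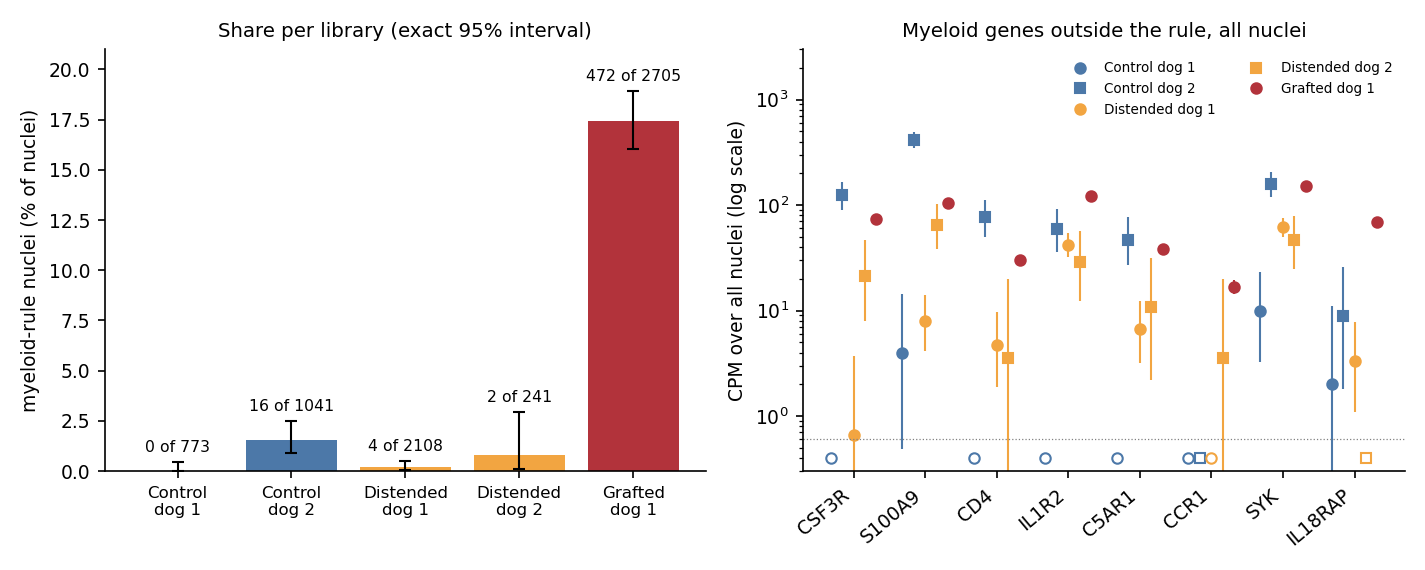
Left, percentage of nuclei that met the myeloid rule per library, with exact 95% intervals: the graft stood at 17.4% and the others between 0 and 1.54%. Right, CPM over all nuclei (log axis) of 8 myeloid genes outside the rule with 95% counting intervals, open symbols under the dotted line marking 0 UMIs: CSF3R, S100A9 and CD4 were highest in control dog 2 and IL1R2, CCR1 and IL18RAP in the graft.

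A rule on raw UMIs is met more easily by a deep nucleus. Outside the members the median nucleus held 421 UMIs in control dog 1, 271 in control dog 2, 546 and 498 in the distended veins and 2564 in the graft. With every nucleus thinned to 500 UMIs and shallower ones left out, the rule was met by 0 of 296 nuclei of control dog 1 (up to 1.01%), 5.04% of 119 of control dog 2 (1.87 to 10.7), 0.0826% of 1211 of distended dog 1, 0 of 120 of distended dog 2 (up to 2.50%) and 10.1% of 2677 of the graft (9.01 to 11.3). At equal depth the intervals of the graft and of control dog 2 overlapped. Thinning removed 922 of the 1041 nuclei of control dog 2.

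Summed over all nuclei of a library, the 7 rule genes stood at 28.0 CPM in control dog 1, 427 in control dog 2, 77.5 in distended dog 1, 165 in distended dog 2 and 915 in the graft. Such sums cannot tell fewer cells of a type from less RNA per cell. Members held 77.6% of the graft's UMIs of these genes. The rest was spread thinly: in the graft 62.9% of 1026 nuclei that met the like rule for endothelial genes had a rule-gene UMI, at a median depth of 4403 UMIs, but their level was 181 CPM against 5917 in members at a median depth of 1484. Nuclei that met the rule for fibroblast genes (363) stood at 308 CPM. Members were chosen for their UMIs of these genes. Their share and the gaps in level thus follow in part from the rule and test nothing. No correction was made for free RNA in the droplets, and its part was not tested.

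The rule genes are given as a description, since they chose the members. AQP9, a channel for water and glycerol, had 1155 UMIs in grafted members (884 CPM) and was detected in 70.1% of them. PLXNC1, the receptor of semaphorin 7A, stood at 1009 CPM (76.5% of members) and SLC11A1, the phagosomal metal transporter, at 655 CPM (67.4%). MXD1, a MAX partner that opposes MYC, stood at 942 CPM (67.8%). IL1RAP, the co-receptor of the interleukin-1 family, stood at 1190 CPM (76.7%). PLEK, a protein kinase C substrate of leukocytes and platelets, stood at 813 CPM (67.8%) and SLA, an adaptor that damps receptor signalling, at 424 CPM (49.6%). Thinned to 500 UMIs, AQP9 was detected in 37.3% of 467 members and 1.66% of 1025 endothelial-rule nuclei, and PLXNC1 in 40.9% and 1.95%.

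Members carried a median of 10 UMIs over the 7 genes (quartiles 5 and 18, range 3 to 238). All 7 genes were detected in 94 of them (19.9%) and just 2 genes in 49 (10.4%). Just inside the limit lay 42 grafted nuclei with 3 UMIs and 40 with 4. Just outside lay 76 with 2 UMIs, 22 with 3 or more from 1 gene only, and 170 with 3 or more that did not exceed another gene set, in 138 of them the endothelial set. Genes outside the rule differed along this range: the 21 measured genes of a neutrophil list summed to 916 CPM in the 82 members with 3 to 4 rule UMIs, 1560 CPM in 135 with 5 to 9, 2388 in 153 with 10 to 19 and 2778 in 102 with 20 or more. Depth moved with it, the median UMIs being 1036, 1076, 1492 and 4383 in that order. The endothelial list, 5 of whose 10 genes the rule used as a limit, stood at 1281, 1679, 1206 and 1896 CPM in the same bins.

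Genes outside the rule were then read in grafted members against the other 2233 grafted nuclei, as ratios of pooled CPM with exact 95% counting intervals. Members were chosen from the same counts, so these ratios describe and do not test. Pooled CPM weights each nucleus by its UMIs, so deep members weigh most. Among 15004 genes with at least 20 UMIs over both sides, 995 (6.63%) were at least 4-fold higher in members and 391 (2.61%) at least 4-fold lower. The median ratio over all genes was 0.979. Against endothelial-rule nuclei alone 1304 of 14005 genes (9.31%) were at least 4-fold higher and 617 (4.41%) lower, and against fibroblast-rule nuclei 1078 of 11179 (9.64%) and 242 (2.16%). Members made up 17.4% of the graft's nuclei and 12% of its UMIs, yet held over 50% of the UMIs of 554 genes (3.69%).

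Receptors that call leukocytes into tissue had the highest list median. All 8 counted genes of the chemotactic receptor list were at least 4-fold higher in members (median ratio 19.2, against 0.979 over all genes and a share of 6.63% called). CCR1, a receptor of CCL3 and CCL5, stood at 119 CPM in members and 2.82 in the other nuclei (42.1-fold, interval 27.9 to 66.0). C5AR1, the receptor of complement C5a, stood at 249 and 9.38 CPM (26.6-fold, 21 to 34). CMKLR1, the chemerin receptor, was 12.6-fold and CXCR1, a receptor of CXCL8, 17.1-fold higher. CXCR2, the other CXCL8 receptor, had 8 UMIs in all members and was too thin to count.

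The interleukin-1 system list, which includes the interleukin-18 receptors, had 11 counted genes. Of these 7 were at least 4-fold higher (median ratio 12.1), against 6.63% of all genes. IL1R2, the decoy receptor that binds interleukin-1 without signalling, stood at 827 CPM in members and 26.1 in the rest (31.7-fold, 27.6 to 36.6), and was detected in 51.3% and 8.60% of nuclei. IL18RAP and IL18R1, which together form the interleukin-18 receptor, were 22.4-fold (430 against 19.2 CPM) and 19.6-fold higher. NLRP3, the inflammasome sensor, was 20.3-fold higher. IL1R1, the signalling receptor, was not higher in members (892 against 1086 CPM, ratio 0.82), and IL33, an alarmin of wall cells, stood at 269 against 599 CPM. The ligands were sparse: IL1B had 16 UMIs and IL1A 33 in all 472 members. IL1RAP belongs to this list but served in the rule and was left out of its count.

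Further receptors were among the single genes with the highest ratios. CSF3R, the G-CSF receptor on which neutrophils depend, stood at 476 CPM in members and 18.8 in the rest (25.4-fold, 21.5 to 30.1). CD4 stood at 206 against 6.15 CPM (33.5-fold, 25.2 to 45.1). Its neighbour GPR162 was 24.7-fold higher, and the 2 genes lie 848 bases apart in the RefSeq annotation of UU_Cfam_GSD_1.0, so reads past the end of one could be counted to the other. CSF1R, the receptor of the monocyte growth factor, was 12.7-fold higher, at 140 CPM. HTR7, a serotonin receptor, stood at 510 against 20.3 CPM (25.1-fold) and IL31RA, a subunit of the interleukin-31 receptor, at 80.3 against 3.34 CPM (24.1-fold). TG, thyroglobulin, was 51.1-fold higher, but SLA, a rule gene, lies inside TG in the same annotation, so the TG counts are not independent of the rule.

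**Figure D2:**
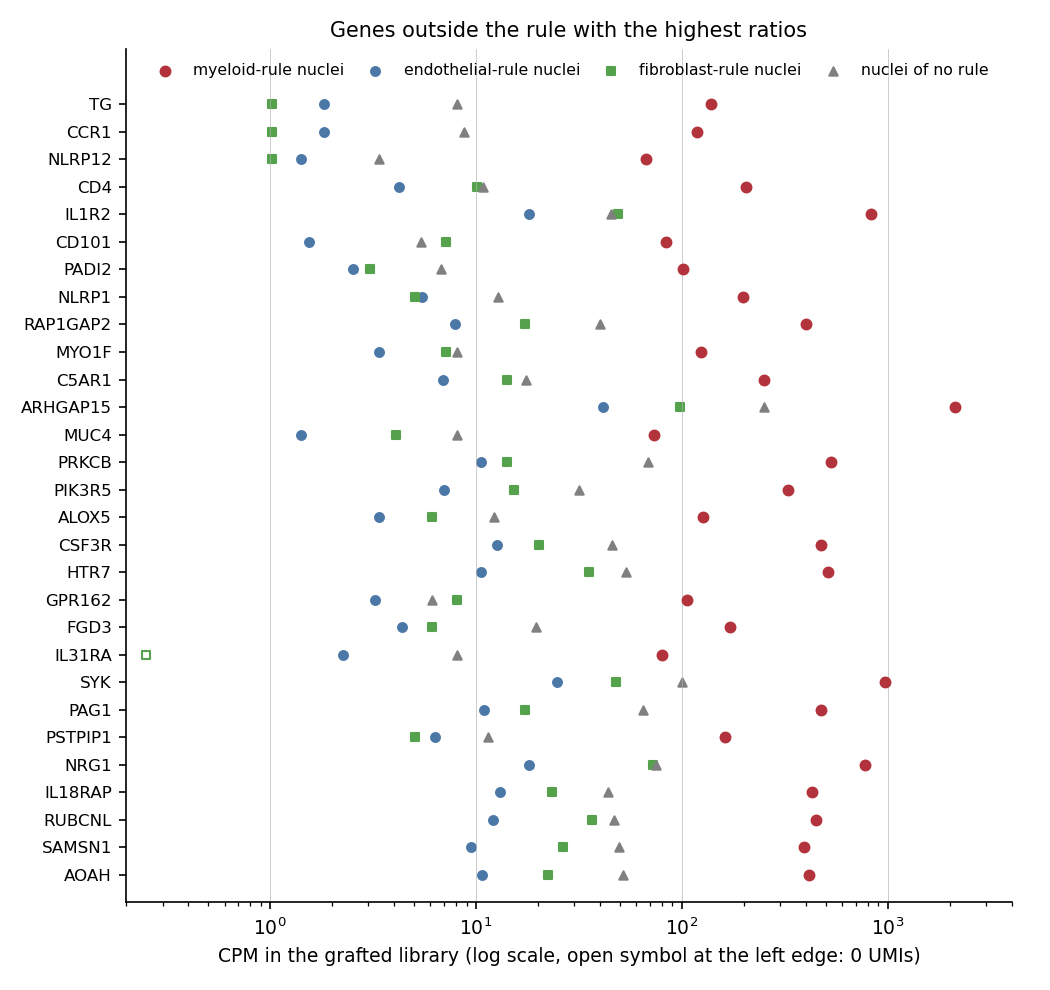
Pooled CPM (log axis) of genes outside the rule with the highest ratios, as far as they are reported, in members and in endothelial-rule, fibroblast-rule and unassigned nuclei of the graft, an open symbol marking 0 UMIs. Members lay to the right of the 3 other classes for each gene, from 51.1-fold over the rest for TG to 22.2-fold for AOAH.

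Signalling proteins below these receptors stood higher as a group. Of 17 counted myeloid kinases, phosphatases and adaptors, 11 were at least 4-fold higher (median ratio 9.41), against 6.63% of all genes. SYK, the kinase that reads Fc receptors, integrins and C-type lectins, stood at 973 against 40.5 CPM (24.0-fold, 21.4 to 27.0), and was detected in 75% and 12.7% of nuclei. PIK3R5, the regulatory subunit of the G protein-driven PI3-kinase, was 25.9-fold higher. PTPRC (CD45), the phosphatase on all white cells, stood at 875 against 51.8 CPM (16.9-fold). PRKCB, a protein kinase C isoform, was 26.0-fold and the membrane adaptor PAG1 22.8-fold higher.

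Genes of crawling and adhesion were also higher. In the actin and migration list 14 of 17 counted genes were at least 4-fold higher (median ratio 13), against 6.63% of all genes. ARHGAP15, which switches off the GTPase Rac, stood at 2127 CPM in members and 81.0 in the rest (26.3-fold, 24.2 to 28.5). LCP1, the actin bundler plastin of leukocytes, was 20.6-fold, the Rac exchange factor DOCK2 19.7-fold, the Cdc42 exchange factor FGD3 24.6-fold and the leukocyte myosin MYO1F 27-fold higher. ELMO1, a DOCK partner, was close to even (774 against 642 CPM, ratio 1.20). Of 15 counted adhesion genes 9 were at least 4-fold higher (median 5.93), among them ITGAL (20.4-fold), ITGAM (17.4-fold), their shared β2 chain ITGB2 (15.5-fold) and FERMT3 (21.2-fold), which activates them. CD44 was 2.60-fold higher and ITGB1 stood below the rest at a ratio of 0.74.

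Effector systems differed in which components were high. Their counts are to be read against the 6.63% of all genes that were at least 4-fold higher. In the NADPH oxidase, which makes superoxide, the leukocyte subunits NCF4 (19.8-fold), NCF1 (13.6-fold) and CYBB (9.79-fold) were higher, 6 of 9 counted genes were at least 4-fold higher, and the widely expressed RAC1 stood at 84.2 against 116 CPM. Of Fc and complement receptors 5 of 7 were at least 4-fold higher: CD55, which breaks up complement convertases, was 16-fold, FCER1G, the signalling chain of Fc receptors, 14.8-fold and FCGR1A 14.3-fold higher. CD59, a complement blocker made by many cells, stood at 80.3 against 294 CPM. In lipid mediator synthesis 4 of 9 were at least 4-fold higher. ALOX5, which starts leukotriene synthesis, was 25.4-fold higher (127 against 5.00 CPM), its partner ALOX5AP 13.5-fold and TBXAS1, thromboxane synthase, 22-fold. PTGS2, cyclooxygenase-2, was lower in members at 276 against 608 CPM. PADI2, which converts arginine to citrulline in proteins, was 30.5-fold and AOAH, which disarms bacterial lipopolysaccharide, 22.2-fold higher.

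Secreted signals gave lower counts, to be read against the 6.63% of all genes that were at least 4-fold higher. Of the cytokine list 3 of 14 counted cytokines and growth factors were at least 4-fold higher: OSM, oncostatin M (30.4-fold), and the EGF receptor ligands AREG (14.9-fold) and EREG (9.79-fold). NRG1, a ligand of ERBB receptors outside that list, stood at 778 against 34.6 CPM (22.5-fold, 19.8 to 25.5). CSF3 and IL6 were not higher in members: CSF3 stood at 592 against 1054 CPM and IL6 at 170 against 323. Of chemokines 1 of 4 was at least 4-fold higher, the neutrophil attractant CXCL8 (1178 against 200 CPM, 5.88-fold, 5.50 to 6.29), while CCL2, which attracts monocytes, stood at 109 against 426 CPM. CXCL8 was detected in 72.9% of members and 40.1% of endothelial-rule nuclei, and in 40.7% and 7.02% once thinned to 500 UMIs.

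**Figure D3:**
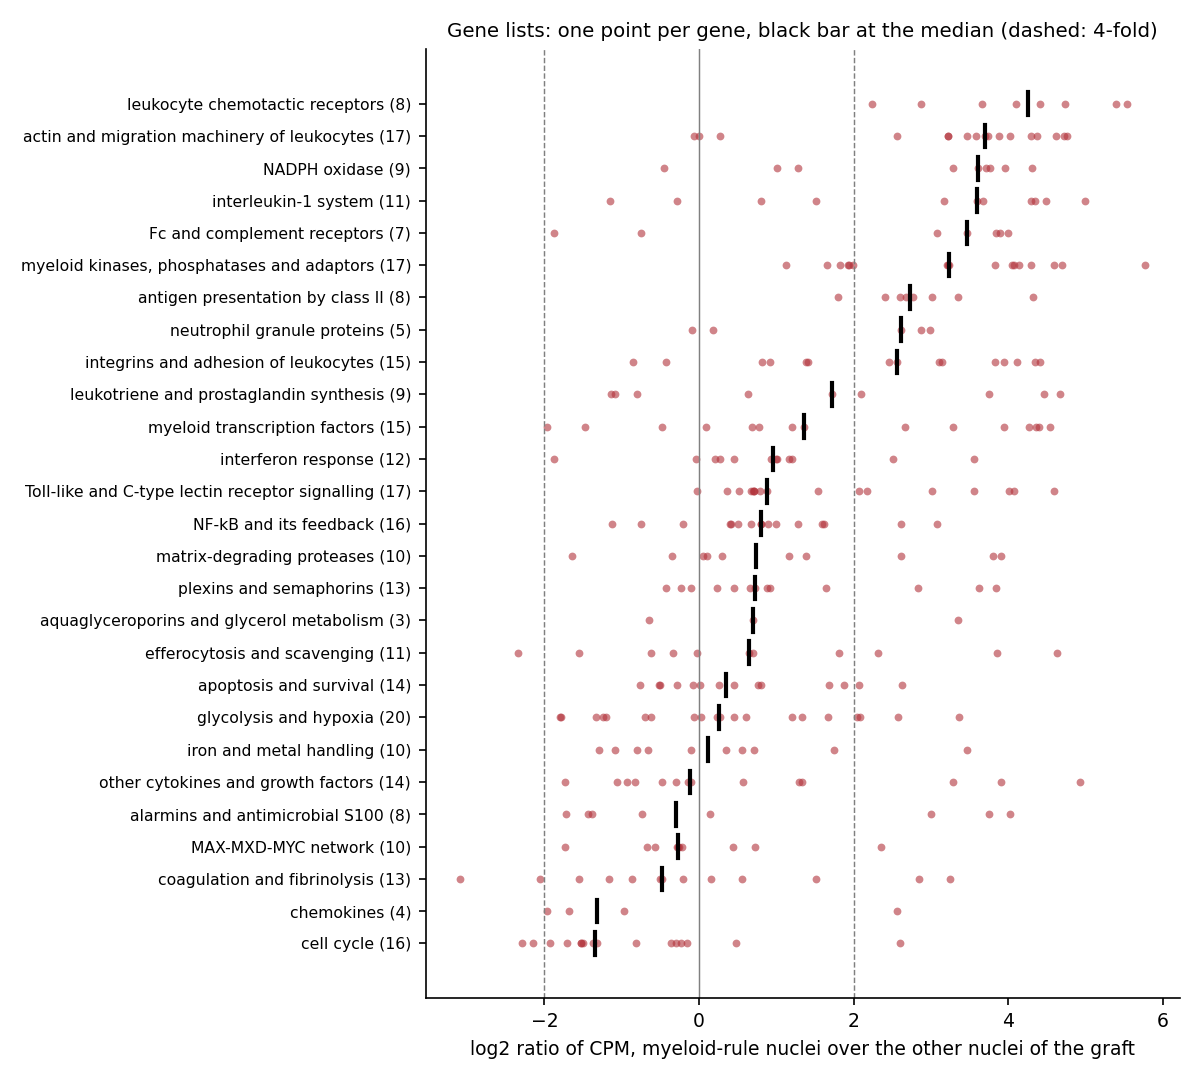
Log2 ratio of CPM in members over the other grafted nuclei for each counted gene of 27 lists (points; number of genes in brackets), with the list median as a black bar and dashed lines at 4-fold. Chemotactic receptors had the highest median (4.25) and cell cycle genes the lowest (-1.35).

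Transcription factors differed among themselves. SPI1 (PU.1), the master factor of myeloid cells, was 20.6-fold higher, NFE2 23.2-fold, RUNX3 21.1-fold, IRF5 19.2-fold and IKZF1 15.4-fold, and 7 of 15 counted factors were at least 4-fold higher (median 2.57). RUNX1 was 2.30-fold higher and stood higher still in fibroblast-rule nuclei (4261 against 2034 CPM in members). CEBPD stood at 290 against 809 CPM. Around MXD1, 1 of the 10 other genes of the MAX network was at least 4-fold higher, MXD3 (5.12-fold), near the 6.63% of all genes, and the list's median was 0.830. Of 16 counted NF-kB genes 13 had a ratio above 1 and 2 were at least 4-fold higher (median 1.75), while the inhibitor gene NFKBIA stood at 508 against 587 CPM. Interferon response genes gave 2 of 12 at least 4-fold higher (median 1.94), beside the same 6.63% of all genes. Cell cycle genes gave 1 of 16 at least 4-fold higher, AURKB, and 2 at least 4-fold lower, the kinase CDK1 and the helicase subunit MCM2, where all genes gave 6.63% and 2.61%. Their median was 0.393.

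Coagulation genes went both ways. PLAUR, the urokinase receptor, stood at 790 CPM in members and 83.1 in the rest (9.5-fold, 8.66 to 10.4) and SERPINB2, an inhibitor of urokinase, was 7.21-fold higher. PROCR, the endothelial protein C receptor, stood at 9.95 against 84.8 CPM (8.52-fold lower). Of 10 counted genes of the matrix-degrading protease list 3 were at least 4-fold higher, where all genes gave 6.63%. ADAM8 (15.0-fold) and ADAM28 (14-fold) were among the 3. TIMP1, an inhibitor of matrix metalloproteinases, stood at 894 against 2796 CPM. Beside the same share, glycolysis gave 4 of 20 higher, including the myeloid hexokinase HK3 (10.3-fold) and the glucose carrier SLC2A3 (5.94-fold). GK, glycerol kinase, which uses the glycerol that AQP9 admits, was 10.2-fold higher (865 against 84.8 CPM).

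The 10 genes with the lowest ratios included several known from endothelium. CLEC14A stood at 6.89 against 57.4 CPM, PLVAP at 16.8 against 124 and RAMP2 at 46.7 against 301. MRPS12, a mitochondrial ribosomal protein, stood lowest at 4.59 against 58.8 CPM (12.8-fold lower). These ratios moved with thinning. With every nucleus thinned to 500 UMIs the ratio was 0.444 for MRPS12, 0.406 for PROCR and 0.568 for CLEC14A. It was 0.344 for PLVAP and 0.290 for CAVIN3, so none of these remained 4-fold lower. TINAGL1 (0.249), RCN1 (0.237), RAMP2 (0.203), TIMM10 (0.182) and ATP5MJ (0.169) did. As a mean over nuclei MRPS12 (0.210), PROCR (0.168), CLEC14A (0.174) and PLVAP (0.237) stayed 4-fold lower. CAVIN3 (0.293) and TINAGL1 (0.270) did not. Before thinning MRPS12, PROCR and CLEC14A had 6, 13 and 9 UMIs in members. Their thinned ratios rest on few counts and cannot show a dependence on depth. The 30 highest genes stayed at least 8.17-fold higher under every alternative run.

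Checked against marker lists, members held genes of more than 1 myeloid type. The counts stand beside the 6.63% of all genes that were at least 4-fold higher. All 13 counted neutrophil genes were at least 4-fold higher in members (21 of the 22 listed are in the files, 8 of them too thin; median 7.95, sum 2341 against 227 CPM). S100A8, S100A9 and S100A12, the calgranulins, were 13.5-, 8.04- and 16.2-fold higher and PADI4 was 21.3-fold higher. The granule gene MPO had 1 UMI, and CAMP, ELANE and the surface phosphatase ALPL had 0. Of 12 counted monocyte genes 8 were at least 4-fold higher (median 6.58), including MARCO (24.8-fold), LYZ (6.80-fold) and VCAN, versican, at 5993 against 993 CPM. CD14 was 1.60-fold higher and CCR2 had 9 UMIs. Class II antigen presentation gave 7 of 8 at least 4-fold higher, with CD86 20.0-fold, CIITA 10.2-fold and CD74 8.07-fold higher. The dendritic cell list gave 3 of 5 (median 6.07) on 135 UMIs in members, with XCR1, CD1C and CCL22 at 0. The eosinophil, basophil or mast cell list gave 1 of 3 (median 1.74) on 96 UMIs.

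By nucleus, 36 members had more neutrophil than monocyte UMIs and 424 the reverse. VCAN and THBS1, which wall cells also transcribe, made up 93.2% of the monocyte UMIs. Without them 321 members had more neutrophil UMIs, 79 more monocyte UMIs, 35 equal numbers and 37 neither, and 170 of the 472 lay within 1 UMI of a tie. The members are therefore not assigned to either type. Lymphoid markers were thin. Of 4 counted T or NK cell genes 1 was at least 4-fold higher (median 2.80), too few to set against the 6.63% of all genes. CD3E had 3 UMIs and PRF1 and KLRB1 had 0. None of 3 counted B cell genes was 4-fold higher, and no platelet gene had enough UMIs to count. Of wall markers outside the rule, 0 of 5 endothelial genes and 0 of 4 fibroblast genes were 4-fold different, at medians of 0.558 and 0.978. The rule set no limit on smooth muscle genes. Of 5 counted ones 4 had a ratio above 1 (median 3.67) and 1 was at least 4-fold higher. That 1 was ACTA2, smooth muscle actin, at 4.04-fold on 55 UMIs. Of these UMIs 50 lay in group 6 of the groups described next.

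Members were not uniform. Clustered without the rule genes, the 472 nuclei fell into 7 groups, which are numbered and not named, since none had 2 or more markers of 1 list among its 10 leading genes. Group 2 (85 nuclei, 18%, median 1085 UMIs) was led by IRF8, P2RY14, BCL11A, GRAMD1B and ALOX5 and had the highest summed neutrophil level, 5270 CPM, with 8 neutrophil markers at 2-fold or more over the other members but 0 of them among its 10 leading genes, where 1 monocyte marker stood. In it CSF3R stood at 1104 CPM, CD4 at 666, IL1R2 at 2192, S100A9 at 1145, IL18RAP at 1194 and CXCL8 at 2509. Group 1 (123 nuclei, 26.1%, median 1091 UMIs) was led by ABCA6, SHTN1, IL31RA, SULF2 and HDAC9, and group 5 (80 nuclei, 16.9%, median 1270 UMIs) by MSR1, CD38, SMPDL3A, FGF10 and KCNMA1. These 2 groups shared high NRG1 (2315 and 2340 CPM against 528 in group 2). CD86 stood at 555 and 610 CPM in them against 187, and PTPRC at 2044 and 1804 CPM against 1161. Their neutrophil sums were lower, at 1807 and 1178 CPM. They differed from each other in CCR1 (115 and 461 CPM), CSF3R (420 and 264), EREG (271 and 107) and FLT3 (129 and 24.7).

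The other 4 groups carried more transcripts of wall cells. Group 3 (71 nuclei, 15.0%) was led by ADAMTSL1, ST8SIA1, FAM227B, LVRN and FGF7 and summed to 1497 CPM over the fibroblast list (4 of its 9 genes served in the rule), against 121 to 761 in the other groups. Group 4 (27 nuclei, 5.72%, median 3276 UMIs) had among its leading genes ZMAT4, RGS4, NOX4 and PLCXD3 and stood at 3500 CPM over the endothelial list. Group 6 (79 nuclei, 16.7%, median 5368 UMIs) was led by TPM2, ZNF804A, ACTA2, TNC and ST6GALNAC5, at 2309 CPM endothelial and 203 CPM smooth muscle. Its median of rule-gene UMIs, 26, was the highest, but that count is not scaled to depth. Groups 1, 2 and 5 held medians of 8, 12 and 10 at median depths of 1091, 1085 and 1270 UMIs. Group 7 (7 nuclei, 1.48%, median 10463 UMIs) was led by APOE, BANF1, HSPB1, MMD and ACKR1, a receptor of venular endothelium. How far droplets with more than 1 nucleus, or free RNA, make up these groups was not tested. Read over groups 1, 2 and 5 alone, 1278 genes were at least 4-fold higher and 1697 at least 4-fold lower than in the other grafted nuclei. The set of genes compared was not the same as for all members.

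**Figure D4:**
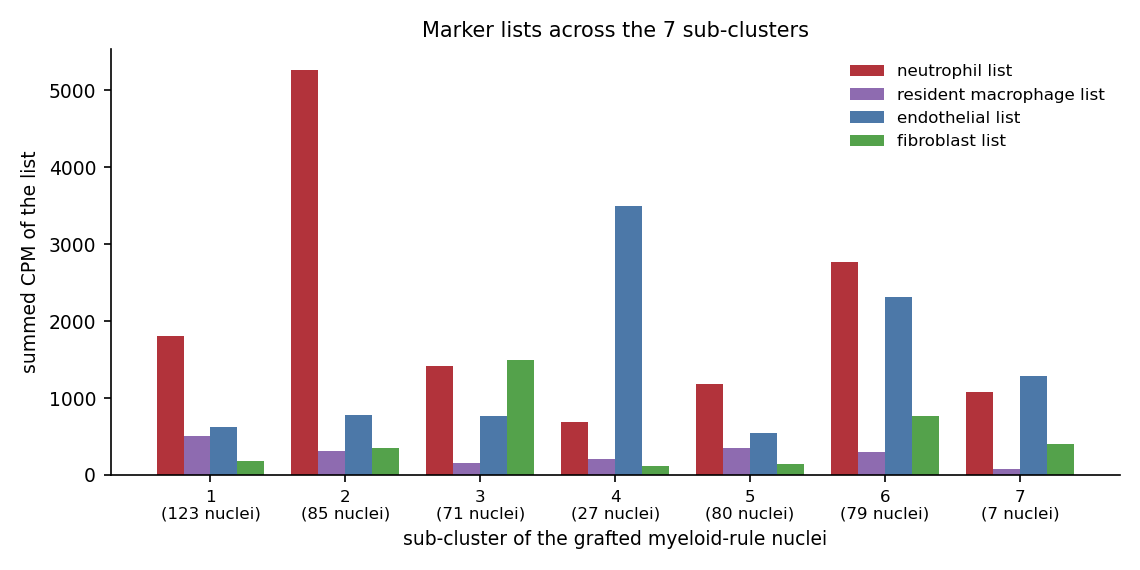
Summed CPM of the neutrophil, resident macrophage, endothelial and fibroblast lists in the 7 numbered groups of grafted members. The neutrophil list was highest in group 2 (5270), the endothelial list in group 4 (3500) and the fibroblast list in group 3 (1497).

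Outside the graft, genes that members held were followed over whole libraries. CSF3R stood at 0 CPM in control dog 1 (3 UMIs would be 5.99), 124 in control dog 2, 0.668 in distended dog 1, 21.5 in distended dog 2 and 73.6 in the graft. CD4 stood at 0, 76.5, 4.67, 3.58 and 30.1 CPM and S100A9 at 4.00, 415, 8.01, 64.4 and 105 CPM in the same order. In all 3, control dog 2 was the highest library and the graft second. IL1R2 stood at 0, 58.8, 42.1, 28.6 and 122 CPM, CCR1 at 0, 0, 0, 3.58 and 16.7, IL18RAP at 2.00, 8.83, 3.34, 0 and 68.4 and PLAUR at 5.99, 11.8, 16, 32.2 and 168. For these 4 the graft was the highest library.

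The 16 members of control dog 2 and the 472 of the graft differed in what they held. The neutrophil list summed to 24148 CPM in the former (238 UMIs) and 2341 CPM in the latter. S100A9 stood at 8117 and 458 CPM, S100A8 at 4769 and 281, CXCR1 at 812 and 37.5, CSF3R at 2232 and 476 and CD4 at 2232 and 206. General leukocyte genes went the same way: ARHGAP15 at 11262 and 2127 CPM, PTPRC at 3145 and 875, SYK at 3247 and 973 and LCP1 at 2942 and 1080. So did the summed rule genes (10958 and 5917 CPM), though IL1RAP did not (812 and 1190). Median depth was 485.5 and 1484 UMIs, so 3 rule UMIs asked for a higher level in control dog 2. How much of the neutrophil difference is shared with these genes was not tested. Higher in the graft were PLAUR (101 and 790 CPM, 1 UMI in control dog 2) and VCAN (2841 and 5993). VCAN was also detected in 81.3% of endothelial-rule and 85.4% of fibroblast-rule nuclei of the graft. NRG1 stood at 203 and 778 CPM, on 2 UMIs in control dog 2. Its counting intervals, 24.6 to 733 and 731 to 828 CPM, overlapped. IL18RAP stood at 101 and 430 CPM, within the counting interval of its 1 UMI. CXCL8 was close to even at 1116 and 1178 CPM. HTR7, NFKB1, THBS1 and TSHZ2 had 0 UMIs in the members of control dog 2, where 3 UMIs would be 304 CPM.

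Over all 22 members outside the graft the neutrophil list stood at 18383 CPM, a grafted level of 0.127 times that (0.112 to 0.145). Without control dog 2 the ratio was 0.644 (0.383 to 1.18), but the 2 distended libraries differed. The 4 members of distended dog 1 stood at 7946 CPM (14 UMIs, 4344 to 13331), above the graft as control dog 2 did, and the 2 of distended dog 2 had 0 UMIs, where 3 would be 1435 CPM. The pooled value thus rests mostly on control dog 2, the library with the erythroid transcripts, whose part was not tested. By gene, PITPNC1, a phosphatidylinositol transfer protein, stood 15.9-fold higher in grafted members than in these (2 UMIs outside, 4.39 to 131) and TSHZ2, with 0 UMIs outside, at least 12.5-fold higher. PLAUR was 10.8-fold higher on 1 UMI outside, with an interval of 1.94 to 428. JAML, a junction molecule of migrating neutrophils, was 58.3-fold lower in the graft (ratio 0.0172, 0.00768 to 0.0402). It had 18 UMIs in grafted members and 11 outside, 9 of them in control dog 2. CD24, a surface protein of granulocytes and B cells, was 20.7-fold lower (ratio 0.0482, 0.0273 to 0.0908). It had 69 UMIs in grafted members and 15 outside, 14 of them in control dog 2.

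**Figure D5:**
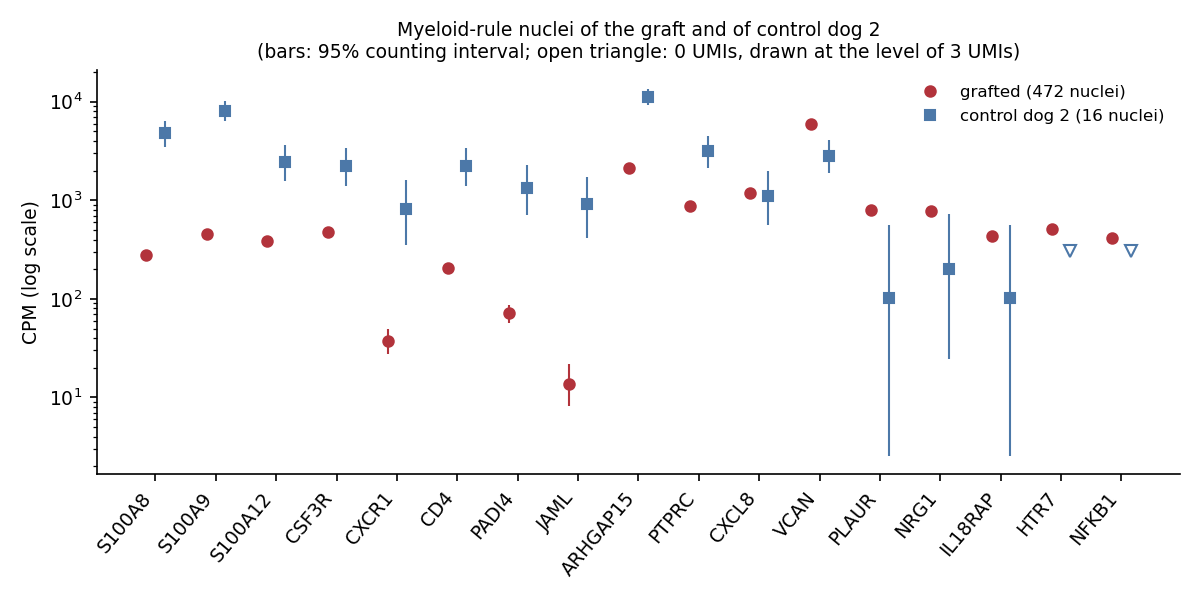
CPM (log axis) of selected genes in the 472 members of the graft and the 16 of control dog 2, with 95% counting intervals and an open triangle, at the level of 3 UMIs, where there were 0. S100A8, S100A9, CSF3R and CD4 lay higher in control dog 2, and PLAUR and VCAN in the graft. NRG1 lay higher in the graft with overlapping intervals.

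Nuclei that met the like rule for resident macrophage genes numbered 54 in distended dog 1, 7 in control dog 2 and 5 in the graft. The 54 held 1 UMI of the neutrophil list (31.4 CPM) and 0 of CSF3R, CD4 and S100A9, against 2341 CPM of the list in grafted members. IL1R2 was not particular to the grafted members: it stood at 1443 CPM (46 UMIs) in these 54 nuclei and at 827 CPM in the members. CSF1R stood at 659 and 140 CPM, CD74 at 1004 and 383 and TNFAIP3, a brake on NF-kB, at 816 and 252. SYK stood at 1223 and 973 CPM. PLXNC1 stood at 282 and 1009 CPM, but it served in the rule that chose the members, so this difference is not independent of the rule. The 54 nuclei and the grafted members came from different libraries, so library and class cannot be told apart in these values. The 5 such nuclei of the graft itself stood between them for the neutrophil list, at 713 CPM, and for CSF3R, at 143 CPM on 2 UMIs. Their CD4 was close to that of members (214 CPM on 3 UMIs), their IL1R2 stood at 428 CPM and their CSF1R at 785 CPM. Of these 5 nuclei 4 also held 3 or more UMIs of the 7 rule genes, which summed to 1640 CPM. Of the 54 nuclei 1 did, at 753 CPM. The 5 thus overlapped the members in the rule genes and are too few to describe a class.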

How the data were processed

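Nuclear RNA of 5 libraries was analysed, from 410604 to 11302558 UMIs deep. Values are whole UMI counts as the authors deposited them, unnormalized, from Cell Ranger 7.0.0 (per the submitters' processing notes). The sources used here name no genome build, so coordinates and sequences were left out. Name endings that set apart copies of a feature were stripped and the copies summed. Of 35121 names, 33471 were found in the RefSeq table of UU_Cfam_GSD_1.0. CPM left out 4 dominant features and 24 without a gene's name (0.588% to 9.95% of UMIs per library).

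Barcodes with at least 100 detected features were kept, 6868 of 7391. Groups were taken from the labels, and dogs 1 and 2 gave both control and distended vein, which pairs these libraries. Doublets were marked with Scrublet in scanpy 1.11.5 and kept. Free RNA was not corrected. Nuclei are not replicates, so no p-value was computed from them. Ratios of pooled CPM carry exact conditional 95% intervals (scipy 1.17.1), shares above 0 carry Clopper-Pearson intervals and shares of 0 a limit of 3 counts, and all cover counting error only. A ratio was counted as different from 4-fold on, with at least 20 UMIs over both sides. A gene at 0 was set to a floor of 3 counts over the group. The share of distended and control vein was compared by a two-sided exact permutation test over libraries, which measures only the spread between these libraries. Thinning drew 500 UMIs per nucleus. Grafted members were clustered (Leiden, resolution 0.5, 1500 variable genes, 15 principal components, 15 neighbours). Calculations were tested on simulated data.

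Named were the 7 rule genes and the 30 highest ratios with at least 50 member UMIs and 10% detection. Further named were the 10 lowest with at least 500 UMIs in the rest, the 10 highest and lowest against members outside the graft, members of 27 pathway and 14 marker lists, and the 5 leading genes of each group. Other genes named were chosen after their values were seen. Some genes that meet these rules are not reported here. The members and lists were chosen with earlier results of these data known. Alternatives changed the feature, UMI and rule limits, doublets, thinning, weighting of nuclei, resolution and libraries.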

Additional observations from a re-analysis of the deposited data

Results flagged for a closer look

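The share of nuclei that met the rule moved in opposite directions with distension in the 2 dogs. Distended minus control was 0.190 percentage points in dog 1 and -0.707 points in dog 2. The first comes from 4 nuclei against 0 and the second from 2 against 16, and the difference between the dogs was not tested.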

How the results depend on the processing

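The grafted share was 14.4% with at least 5 rule UMIs, 19.8% with at least 2, 10.1% thinned to 500 UMIs, 15.7% without PLXNC1 and 15.6% without IL1RAP in the rule. Grafted minus control was 13.1 points with at least 500 features, where control dog 2 itself stood at 7.55% (4 of 53 nuclei), 13.9 and 18.9 with at least 5 and 2 rule UMIs, and 7.6 thinned. It was 15.2, 15.4, 15.4 and 14.9 without PLXNC1, SLC11A1, MXD1 and IL1RAP, and 15.9 to 17.4 with 1 control left out. Distended minus control turned to 0.0192 points with at least 2 rule UMIs. It ran from -1.03 to 0.510 with 1 library left out, being 0.510 without control dog 2 and 0.0614 without distended dog 1. With the dog as replicate block, the pairing the labels give, it was -0.259 points (exact permutation p = 1, where 0.5 is the smallest possible).

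Genes at least 4-fold higher numbered 478 with at least 100 UMIs, 1731 with no minimum and 458 thinned. Those at least 4-fold lower numbered 237 with at least 100 UMIs, 835 as a mean over nuclei and 1697 in groups 1, 2 and 5 only. The UMI minimum, thinning and the choice of groups also changed how many genes were compared, so these counts are not shares of 1 set. Of 80 named genes at 4-fold, 73 remained so as a mean over nuclei and 68 of 76 when thinned. MX2 fell under the limit without SLC11A1 in the rule, and no ratio reversed. Of 9 lists with a median of 4-fold or more, granule proteins dropped to 1.91 as a mean over nuclei and 2.88 thinned. The neutrophil level of grafted members over those outside was 0.192 with the 4 dominant features, and 0.108 to 0.644 with 1 library left out. Resolution 0.3 gave 4 groups. Rule changes and the analysis of groups 1, 2 and 5 were chosen after seeing the data. Depth limits the 22 members outside the graft, which hold 13708 UMIs, and 1 grafted library allows no test of the graft.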

Other observations

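Pattern receptors of microbes and dead cells, which the comparisons above left out, were uneven in grafted members against the other grafted nuclei. Over all genes 6.63% were at least 4-fold higher. Of 17 counted genes of Toll-like and C-type lectin signalling 7 were at least 4-fold higher, including CLEC7A, the β-glucan receptor (16.8-fold), TLR8 (16.2-fold), TLR2 (11.7-fold) and TLR4 (4.18-fold), while the adaptor kinase IRAK2 stood at 308 against 216 CPM. The scavenger receptor MSR1 was 14.4-fold and LRP1 4.96-fold higher, whereas MFGE8, the bridge to dying cells, stood at a ratio of 0.197. Of 14 survival genes BCL2A1 (6.15-fold) and CASP8 (4.19-fold) were at 4-fold or more (median 1.28).

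Beside PLXNC1, which served in the rule, 3 of 13 plexin and semaphorin genes were at least 4-fold higher, where all genes gave 6.63%. They were SEMA4D (14.4-fold), SEMA4A (12.4-fold) and SEMA7A (7.10-fold), the last of which encodes the ligand of PLXNC1. HMOX1, which breaks down haem, was 11-fold higher.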
